A study of Rattus norvegicus with 183 samples.

Results

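Libraries of the posterior ventral tegmental area that were rich in Slc17a6 transcript were compared with libraries that were poor in it. Slc17a6 encodes VGLUT2, the vesicular glutamate transporter of most subcortical glutamate neurons. The members were chosen by measured Slc17a6: libraries with at least 10 counts per 1e6 (CPM) of Th, the tyrosine hydroxylase gene of dopamine neurons, were ranked by Slc17a6 CPM. The 30 highest and the 30 lowest were taken, which is 60 of 141 libraries with Th and of 152 with values. All came from outbred laboratory rats (heterogeneous stock, as the series title says) and were made from polyA RNA. No treatment, age or sex is given in the labels, so the ranking alone sets the sides. The labels divide the animals by the format of the identifier. The 30 highest libraries hold 14 decimal and 16 hexadecimal identifiers, and the 30 lowest hold 10 and 20.

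The ventral tegmental area holds dopamine, GABA and glutamate neurons side by side. Its neighbours differ in transmitter. The red nucleus holds large glutamate neurons that project to the spinal cord, the hypothalamus in front holds several VGLUT2 populations, and the interpeduncular and raphe nuclei behind and below hold mainly GABA and serotonin neurons. Glutamate made in the terminal is loaded into vesicles by a transporter of the Slc17a family, so Slc17a6 marks the transmitter and not a single nucleus. Each library is a dissected piece of tissue, and a smaller number of cells of a type cannot be told apart from less RNA per cell.

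Slc17a6, which chose the libraries and is given as a description, lay between 217.9 and 388 CPM in the 30 highest libraries (median 253) and between 35.1 and 110.7 CPM in the 30 lowest (median 91.4). The last library inside the high side had 217.9 CPM and the next one outside had 217.5 CPM. At the other end, the last library outside the low side had 111.6 CPM and the next one inside had 110.7 CPM. The ranking was therefore cut through a continuous range at both ends. In the 11 libraries with almost no Th, which are on no side, Slc17a6 lay between 5.08 and 22.4 CPM. Totals were 16.1 to 57.2 M (1e6) estimated counts on the high side (median 24.1 M) and 15.2 to 51.99 M on the low side (median 23.1 M). The ranges of depth overlapped almost completely. Libraries that stand apart in other genes were unevenly spread: more than 10 CPM of the serotonin gene Tph2 was found in 9 of the lowest and 0 of the highest, and more than 100 CPM of the cortical gene Slc17a7 in 3 of the lowest and 0 of the highest. By their descriptions 4 of the highest and 3 of the lowest libraries were given a new identifier after a genotype mismatch or had none known before.

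**Figure D1:**
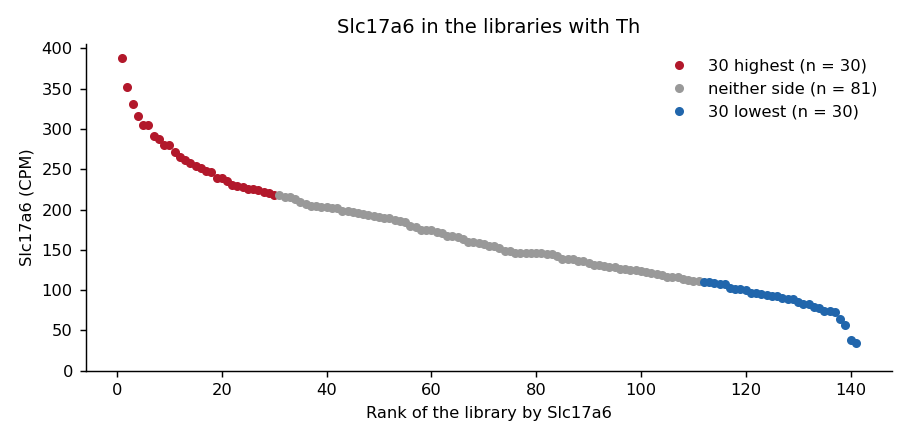
Slc17a6 in CPM (y axis) for each of the 141 libraries with Th, ordered by rank (x axis). Red points are the 30 highest libraries, blue points the 30 lowest and grey points the 81 on neither side, and no gap separates the sides from the rest.

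Nearly as many genes differed between the sides as did not. Of 15545 genes tested other than Slc17a6, 2221 were higher and 5087 lower in the 30 highest libraries, that is 14.3% and 32.7% of all genes (limma on log2(CPM + 1) with identifier format as a covariate, Benjamini-Hochberg adjusted p below 0.05). The difference exceeded 1 log2 unit for 71 of the higher and 146 of the lower genes. The direction of the small differences depended on the scaling: 30.4% of the calls were higher with CPM, 48.3% with median-of-ratios scaling (3292 higher, 3530 lower) and 51.6% with quantile normalization (3331 higher, 3122 lower). With the mean of the interpeduncular and habenular list as a further covariate, 1250 genes were higher and 1037 lower. With the meningeal fibroblast list in its place, 2570 were lower. Taking the extremes of a ranking enlarges differences, and the test asks only whether a gene goes with Slc17a6.

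The 81 libraries on neither side were not used to form the sides and served as a second look at the same genes. There log2(CPM + 1) of each gene was fitted on log2(CPM + 1) of Slc17a6. For a gene well above 1 CPM a slope of 1 means that it about doubles when Slc17a6 doubles. For a gene near or below 1 CPM the same slope means more than a doubling. The slope passed for 882 genes upward (5.67% of all) and 1903 downward (12.2% of all, limma, adjusted p below 0.05). Of the genes higher between the sides, 91.6% also had a positive slope, and of the lower ones 95.6% a negative slope. The median slope over all genes was -0.08, so negative slopes were the more common ones in general. Calls in both places were shared by 829 genes upward and 1663 downward, and 1 gene was called in opposite directions. The number of called slopes depended on the scaling, with 3148 upward and 3244 downward under median-of-ratios scaling. In the libraries with a decimal identifier alone it was 24 and 13, and with a hexadecimal one alone 463 upward of 827 called.

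The upstream sequences of 4 genes with large differences, a pair from each direction, are shown so that the windows searched for a motif can be read. RefSeq promoter windows were found for 9 of the 15 genes with the largest positive and for 10 of the 15 with the most negative differences. Scn4b and C1ql4 are from the higher genes, and Otp and Pou4f2, which encode homeodomain transcription factors, from the lower ones. Each line gives the 250 bases before the RefSeq start site, which for these 4 genes is the position given in the deposited table, with GGGCGG (the GC box, on both strands, overlapping matches included) in capitals.
Scn4b (GRCr8, chr8:54343623-54343872, plus strand): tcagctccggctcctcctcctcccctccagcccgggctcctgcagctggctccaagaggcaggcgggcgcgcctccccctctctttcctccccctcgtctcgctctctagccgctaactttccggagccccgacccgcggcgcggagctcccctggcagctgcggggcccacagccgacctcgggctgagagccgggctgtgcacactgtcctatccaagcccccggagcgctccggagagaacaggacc
C1ql4 (GRCr8, chr7:132125610-132125859, minus strand): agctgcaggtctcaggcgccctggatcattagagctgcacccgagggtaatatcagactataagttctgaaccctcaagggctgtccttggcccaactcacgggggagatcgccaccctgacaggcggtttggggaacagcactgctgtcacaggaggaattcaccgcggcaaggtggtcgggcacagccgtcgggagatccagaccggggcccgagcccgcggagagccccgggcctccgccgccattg
Otp (GRCr8, chr2:27842642-27842891, plus strand): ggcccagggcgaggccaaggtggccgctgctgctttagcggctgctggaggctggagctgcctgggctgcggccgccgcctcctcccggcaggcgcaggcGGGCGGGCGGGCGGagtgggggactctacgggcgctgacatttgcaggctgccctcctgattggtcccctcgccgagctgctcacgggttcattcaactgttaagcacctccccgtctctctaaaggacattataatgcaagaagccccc
Pou4f2 (GRCr8, chr19:46390708-46390957, plus strand): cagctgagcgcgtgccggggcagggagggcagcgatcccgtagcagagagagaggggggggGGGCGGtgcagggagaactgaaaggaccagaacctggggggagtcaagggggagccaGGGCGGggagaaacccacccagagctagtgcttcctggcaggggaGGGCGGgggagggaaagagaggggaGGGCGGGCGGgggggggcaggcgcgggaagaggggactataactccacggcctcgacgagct
Scn4b and C1ql4 hold no GC box in this window, Otp holds 3 and Pou4f2 holds 5. The box was present in 2 of the 9 windows of higher genes and in 5 of the 10 windows of lower genes, against 30.5% of all 33469 windows of the same length. Median GC content was 64% in the windows of higher genes, 60.2% in those of lower genes and 51.2% in all windows. The share of all windows is therefore not matched for GC content. The 4 windows shown do not stand for their directions. Grifin and Vwa7 of the higher genes hold a box, and Epyc, Nhlh1, Pax3, Cacng5 and Tph2 of the lower genes hold none. These are matches of letters, and binding was not measured.

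Genes of large, fast-firing projection neurons were far higher in the 30 highest libraries. Of 16 listed genes, all measured, 14 rose and 1 fell between the sides, with a median difference of 1.62 log2 units, against -0.07 over all genes. Over all genes 14.3% rose and 32.7% fell. In the 81 other libraries 13 of the 16 slopes passed upward and 0 downward (median slope 1.56), against 5.67% and 12.2% of all genes. Earlier results of these libraries had shown that several of these genes oppose the dopamine genes, so the list is no independent evidence of its direction. The median was 1.58 within decimal and 1.54 within hexadecimal identifiers, and 1.07 with the interpeduncular covariate, where 13 rose.

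The neurofilament genes Nefl, Nefm and Nefh encode the light, medium and heavy chains that set the calibre of thick axons. Nefh lay between 434 and 3594 CPM in the highest libraries (median 1226) and between 191 and 1366 CPM in the lowest (median 258). All 30 highest libraries were above the median of the lowest, although the ranges overlapped. The difference was 2.02 ± 0.18 log2 units (SE, 30 and 30 libraries, limma adjusted p = 1.71e-14), a 4.05-fold change. Nefm (2.06 ± 0.15) and Nefl (1.98 ± 0.16), which are neighbours on chromosome 15, differed by nearly the same amount, and the slopes of the 3 genes in the other libraries were 1.84, 1.67 and 1.70.

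Scn4b, the sodium channel subunit that supports resurgent current, showed the widest separation among the channel genes. It lay between 73.1 and 429 CPM (median 211) in the highest and between 10.4 and 203 CPM (median 33.6) in the lowest libraries. The difference was 2.66 ± 0.19 log2 units (limma adjusted p = 9.88e-18) and the slope in the other libraries 2.38 ± 0.30 (adjusted p = 9.04e-09). The low-side range reached into the high-side range, but no low-side library reached the high-side median. Syt2, a fast calcium sensor of transmitter release, and Vamp1, its vesicle fusion partner, differed by 2.04 ± 0.13 and 1.53 ± 0.12 log2 units. Spp1, the osteopontin gene, differed by 1.73 ± 0.26 and Pvalb, the parvalbumin gene, by 1.38 ± 0.14. Cabp7, a calcium-binding protein gene, was at 42.6 to 126.6 CPM in the highest libraries and at 7.77 to 362.2 CPM in the lowest, so its single highest value stood on the low side. Kcnab3 did not pass (-0.16).

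**Figure D2:**
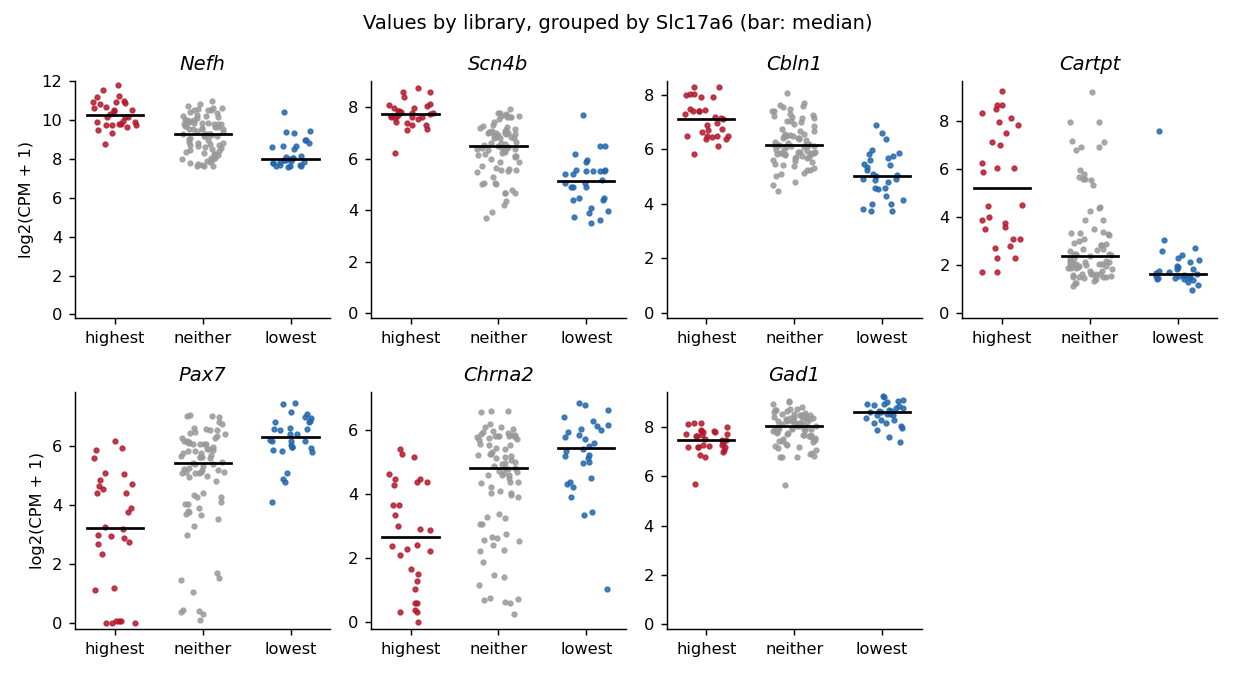
Each point is a library, with log2(CPM + 1) on the y axis and the 30 highest, the 81 others and the 30 lowest libraries by Slc17a6 on the x axis. The bar is the median, and the panels show Nefh, Scn4b, Cbln1 and Cartpt with higher medians and Pax7, Chrna2 and Gad1 with lower medians on the high side, the 81 other libraries lying between.

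Ion channel families were split between members that rose and members that fell. Among 9 voltage-gated sodium channel genes 4 rose and 5 fell between the sides, against 14.3% and 32.7% of all genes. Scn8a and Scn1a, which encode the channels Nav1.6 and Nav1.1, rose by 1.14 ± 0.09 and 1.04 ± 0.08 log2 units. Scn2a, Scn3a and Scn9a were lower by less (-0.22, -0.45 and -0.39), as were Scn2b and Scn3b (-0.32 and -0.38), and Scn2a lost its call under median-of-ratios scaling and Scn9a under quantile normalization. With the interpeduncular covariate the 4 rises kept their call and 0 of the falls did.

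Potassium channels of fast-firing neurons were more uniform. Of 12 listed genes 11 were measured, 8 rose and 0 fell, against 14.3% and 32.7% of all genes. The median difference was 0.89 log2 units. In the other libraries 8 had a called upward slope, against 5.67% of all genes. Kcng4, a silent subunit gene, lay between 37.8 and 174.9 CPM in the highest and between 24.0 and 48.4 CPM in the lowest libraries (medians 92.5 and 35.3). The difference was 1.38 ± 0.10 log2 units (limma adjusted p = 4.36e-18), and all 30 highest libraries were above the median of the lowest. The axonal Kv1 gene Kcna1 rose by 1.26 ± 0.10. Kcnc2 was at 136.5 to 352 CPM in the highest and 64.6 to 136.1 CPM in the lowest libraries, so that the sides only just failed to meet. Non-overlapping ranges were found for 4 of all genes upward (0.0257%) and 0 downward (0.00%). The 4 are Kcnc2, Emx2, the ceramidase gene Asah2 and the ubiquitin ligase gene Rnf157. Asah2 and Rnf157 are on no list and were named after their values were seen.

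Secreted organisers of synapses rose in part. Cerebellins and C1q-like proteins are released from terminals and bind receptors across the cleft. Of 8 listed genes 7 were measured, 4 rose and 0 fell (median 1.02 log2 units), against 14.3% and 32.7% of all genes. The same 4 had called upward slopes, against 5.67% of all genes. C1ql2 lay between 20.4 and 254 CPM (median 111.6) in the highest and between 3.27 and 84.97 CPM (median 11.4) in the lowest libraries. C1ql4 was at 3.97 to 20.9 CPM against 0.0444 to 5.04 CPM (medians 10.03 and 0.505). Their differences were 2.69 ± 0.29 and 2.63 ± 0.16 log2 units (limma adjusted p = 3.16e-11 and 9.70e-21). Cbln1 lay between 55.7 and 307 CPM in the highest and between 12.2 and 116.8 CPM in the lowest libraries, a difference of 2.07 ± 0.19 log2 units. Cbln2 rose by 1.02 ± 0.12, whereas Cbln4 (0.01), C1ql1 (0.16) and C1ql3 (0.33) did not pass with CPM. C1ql3 passed upward under both other scalings.

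Markers of individual glutamate nuclei moved in both directions. Of 16 listed genes of tegmental and red nucleus glutamate neurons 12 were measured, and 6 rose and 5 fell between the sides (median 0.36). Over all genes 14.3% rose and 32.7% fell, so the count of falls is not far from that of genes in general. Pou4f1, the Brn3a factor of the red nucleus and habenula, lay between 13.2 and 41.7 CPM in the highest and between 4.20 and 21.4 CPM in the lowest libraries (1.01 ± 0.12 log2 units, limma adjusted p = 3.18e-10), with a slope of 0.52 ± 0.30 in the other libraries that did not pass (adjusted p = 0.203). Emx2, a homeobox gene, was at 1.91 to 6.63 CPM in the highest and at 0 to 1.62 CPM in the lowest libraries. Its difference was 1.46 ± 0.10 and its slope 1.34 ± 0.19 (adjusted p = 2.50e-07). Six3 (1.14), Nrn1 (0.86), Cbln1 and Cbln2 were the other rises. Pou4f2 (-1.58), Meis2 (-1.08), Irx5 (-0.77), Irx3 (-0.70) and Nkx6-1 (-0.56) fell, and Tac1 did not pass (-0.15).

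Of 14 listed genes of hypothalamic, mammillary and subthalamic glutamate neurons 9 were measured, 4 of them higher and 3 lower. Over all genes 14.3% rose and 32.7% fell, so the count of lower genes is near that of genes in general. Cartpt, which encodes the CART peptide, had the largest positive difference of the genes named by the rule (3.32 ± 0.48 log2 units, limma adjusted p = 6.72e-08). It ranged from 2.30 to 613 CPM in the highest libraries (median 40.2), and from 0.951 to 189.7 CPM in the lowest, where the median was only 2.14. The high side was thus itself wide, and 1 low-side library exceeded its median. Its slope in the other libraries was 3.02 ± 0.66 (limma adjusted p = 0.000959). Foxb1 (0.33) and Foxp2 (0.27) rose by less. Otp (-2.48), Lhx5 (-1.19) and Lhx1 (-0.64) fell. Of 9 measured thalamic genes 2 rose and 4 fell, not far from the shares of all genes. Ntng1, the netrin G1 gene, rose by 1.08 ± 0.08. Of 11 hindbrain genes only Pax2 reached the minimum level (-0.68). Genes with low values, such as Emx2, could pass that minimum through the libraries in which they were high.

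The remaining vesicular glutamate transporters did not rise with Slc17a6. Slc17a7, the cortical VGLUT1 gene, lay between 0.524 and 48.3 CPM in the highest and between 0.234 and 607 CPM in the lowest libraries (medians 3.27 and 8.68), a difference of -1.01 ± 0.47 that did not pass (limma adjusted p = 0.0697). Without the 3 lowest libraries above 100 CPM of Slc17a7, 2274 genes were higher and 5027 lower. Slc17a8, the VGLUT3 gene, fell by 0.74 on the log2 scale. Of 14 genes of glutamate synthesis and recycling 6 rose and 3 fell, by at most 0.42 log2 units, against 14.3% and 32.7% of all genes. Gls2, a glutaminase gene, was at 55.1 to 90.9 CPM in the highest and at 40.04 to 69.5 CPM in the lowest libraries (0.42 ± 0.05, slope 0.35 ± 0.08). Glul, the glutamine synthetase gene of astrocytes, rose by 0.39 ± 0.05. Slc1a3 and Slc38a1 lost their fall under median-of-ratios scaling, and Slc1a2 and Slc38a5 their calls under quantile normalization.

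Counts of receptor genes are read against the 14.3% of all genes that rose and the 32.7% that fell. Of 18 ionotropic glutamate receptor genes 5 rose and 8 fell, with Grin2a highest (0.51 ± 0.08), and Gria2 (-0.43 ± 0.09), Grik1 (-0.75) and Gria1 (-0.40) among the falls. Of 7 metabotropic receptor genes 1 rose and 3 fell, and of 14 measured GABA-A receptor genes 3 rose and 4 fell, both near those shares and no result about these families. Gabrb2, which encodes a beta subunit, rose by 0.75 ± 0.08 and lay between 152.1 and 337 CPM in the highest and between 76.8 and 220.4 CPM in the lowest libraries. Gabrd, the extrasynaptic delta subunit, fell by 1.16 on the log2 scale, with Gabra2, Gabra3 and Gabra4. The adult glycine receptor subunit gene Glra1 rose by 1.10 ± 0.17 and Slc6a5, the transporter gene of glycine neurons, fell (-1.19 ± 0.17).

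In the other direction, genes of the interpeduncular region were lower in the 30 highest libraries. Of 8 listed interpeduncular and habenular genes 6 were measured, 5 fell and 0 rose, in a background where 32.7% of all genes fell, with a median of -0.70 log2 units. All 5 also had a called downward slope in the other libraries, against 12.2% of all genes. Chrna2, a nicotinic receptor subunit, ranged from 0 to 41.6 CPM in the highest libraries (median 5.38) and from 1.06 to 113.7 CPM in the lowest (median 42.4). No highest library reached the median of the lowest, and the difference was -2.67 ± 0.35 (limma adjusted p = 3.46e-09). Chrnb4 (-1.93 ± 0.22), Chrna5 (-0.71 ± 0.17) and Chrna3 (-0.68 ± 0.14), which are neighbouring nicotinic subunit genes, fell with it.

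The genes with the most negative differences were of several kinds, transcription factor, receptor, transporter and matrix genes among them. Epyc, which encodes the proteoglycan epiphycan, lay between 0 and 18.1 CPM in the highest and between 3.43 and 147.5 CPM in the lowest libraries (-3.27 ± 0.32, limma adjusted p = 1.28e-12). Pax7, a paired box factor of the dorsal neural tube, was at 0 to 71.6 CPM (median 8.34) against 16.2 to 176.9 CPM (median 78.6), a difference of -3.22 ± 0.38 (limma adjusted p = 2.13e-10). Its relative Pax3 fell too (-1.98 ± 0.19). The helix-loop-helix gene Nhlh1 (-2.52 ± 0.28) and the homeobox gene Otp (-2.48 ± 0.25) were likewise lower. Cacng5, a gene of auxiliary AMPA receptor proteins, fell by 2.29, and Hs3st4, Sla and Cyp11b1 by 1.59, 1.58 and 1.56, on the log2 scale. Reads of Cyp11b1 may be shared with its near copies, which was not tested. In the other libraries the slopes of Nhlh1 (adjusted p = 0.0814), Hs3st4 (0.0586), Pou4f2 (0.118), Cyp11b1 (0.057) and Slc6a4 (0.0629) were negative without passing in limma, and those of the other 10 of the 15 genes with the most negative differences passed.

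**Figure D3:**
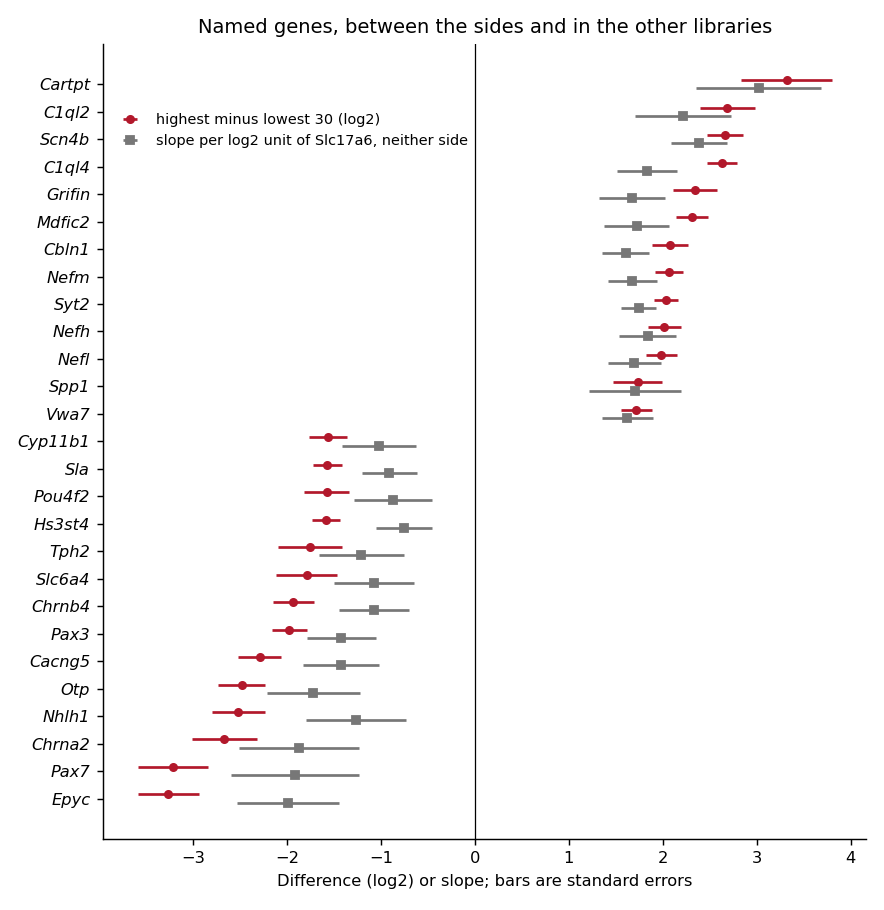
Differences between the 30 highest and 30 lowest libraries (red, log2) and slopes on log2 Slc17a6 in the 81 other libraries (grey) for 27 of the 30 genes chosen by the rule, with standard errors. Each gene has the same sign in both, which the rule required, from 3.32 for Cartpt to -3.27 for Epyc.

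Serotonin and GABA genes were lower in the highest libraries. All 4 measured serotonin genes of 5 fell (median -1.63). Tph2, the serotonin synthesis gene, was at 0.124 to 9.36 CPM in the highest and at 0.412 to 160.05 CPM in the lowest libraries (medians 1.41 and 6.29). Without the 9 lowest libraries above 10 CPM of Tph2 the 4 genes still fell, with a median of -0.83, and 2126 genes were higher and 4508 lower over all. Of 14 GABA neuron genes 12 were measured, 8 fell and 0 rose (median -0.50), against 32.7% of all genes that fell. Gad1, which makes GABA, lay between 50.7 and 289 CPM in the highest and between 169.0 and 614 CPM in the lowest libraries, a difference of -1.10 ± 0.12 (limma adjusted p = 3.62e-11) with a slope of -0.92 ± 0.23 in the others (adjusted p = 0.0039). The vesicular GABA transporter gene Slc32a1 fell by 0.54 on the log2 scale. The second GABA synthesis gene, Gad2, was at 8.32 to 164.9 and at 7.92 to 124.9 CPM and did not pass (0.05 ± 0.25, adjusted p = 0.888).

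Among 21 neuropeptide genes, 16 of them measured, Cartpt and Adcyap1 (0.33) rose and 6 fell, near the shares of all genes that rose (14.3%) and fell (32.7%). The enkephalin precursor gene Penk was at 11.4 to 84.8 CPM in the highest and 30.3 to 186.7 CPM in the lowest libraries (-1.42 ± 0.15), and somatostatin (Sst, -1.42 ± 0.22), neuropeptide Y (Npy, -1.17), Vip (-1.16), Pdyn (-0.89) and Gal (-0.81) fell with it. Of 6 measured cholinergic and motor neuron genes Chat (0.54 ± 0.19, highest value 33.1 CPM against 2.80 CPM), Slc18a3 (0.50), Prph (0.89) and Calca (0.25) were higher and Prdm8 (-0.80) was lower. Only 1 rise was left with the interpeduncular covariate, with the meningeal covariate and within either identifier format, and 1 slope in the other libraries passed upward.

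Of 20 dopamine neuron genes 14 did not pass, 5 fell and 1 rose (median -0.21), against 32.7% of all genes that fell and 14.3% that rose. The count of falls between the sides is thus near that of genes in general. Th, which entered the rule only through its minimum, was at 577 to 2659 CPM in the highest and 604 to 3934 CPM in the lowest libraries (medians 1267 and 1732). The vesicular monoamine transporter gene Slc18a2 fell by 0.34 ± 0.12 on the log2 scale (limma adjusted p = 0.018, lost under median-of-ratios scaling). En2 (-0.56), Aldh1a1 (-0.47), Gch1 (-0.47) and Drd2 (-0.25, lost under both other scalings) also fell, and the floor plate factor gene Foxa2 rose by 0.65 ± 0.11. In the other 81 libraries 9 of the 20 slopes passed downward, a larger share than the 12.2% of all genes. The count on the sides changed with the Tph2-rich libraries: without them 17 of 20 genes fell and the median was -0.45. Of all 15545 genes 4508 fell without these libraries. With the interpeduncular covariate 0 fell and 1 rose (median 0.24).

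Other cells of the dissected tissue moved with the sides. Counts of their genes are read against the 32.7% of all genes that fell and the 14.3% that rose. All 8 meningeal fibroblast genes fell (median -1.11), and their summed level ranged from 63.2 to 1724 CPM (median 296.9) on the high and from 142.9 to 4123 CPM (median 866) on the low side. Within decimal identifiers 8 of them fell, but within hexadecimal ones only 1 did (medians -1.44 and -0.89). With the interpeduncular covariate 0 fell (median -0.45), and only 1 slope in the other libraries passed downward. All 5 measured erythrocyte genes of 6 fell (median -1.09), with near-identical globin copies among them, and 0 of their slopes in the other libraries passed in either direction. Of 10 microglia genes 8 fell by at most 0.41 log2 units. Of 10 astrocyte genes 6 fell, led by the filament gene Gfap (-1.50 ± 0.18, 209 to 1713 against 709.6 to 4352 CPM), and 3 rose by at most 0.27. Mural cell genes fell in 5 of 8 and ependymal genes in 5 of 5 measured. Oligodendrocyte genes did not differ much: 4 of 12 rose, Mag by 0.24, and Mbp, the main myelin gene, was at 11621 to 21316 and at 9391 to 24804 CPM. The summed level of the oligodendrocyte list was 25762 to 44254 CPM on the high and 20848 to 44431 CPM on the low side. With the meningeal list as a covariate 13 large projection neuron genes (median 1.46) and 8 potassium channel genes (median 0.78) rose and 8 GABA genes fell. The falls went from 5 to 0 for erythrocyte and for mural cell genes, from 6 to 2 for calcium channel genes and from 5 to 3 for ependymal genes, while dopamine falls went from 5 to 10 (median -0.37). With the interpeduncular covariate 0 erythrocyte, 0 mural cell, 1 ependymal, 2 astrocyte and 7 microglia genes fell. The part of these other cells in the remaining results was not tested beyond these covariates.

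**Figure D4:**
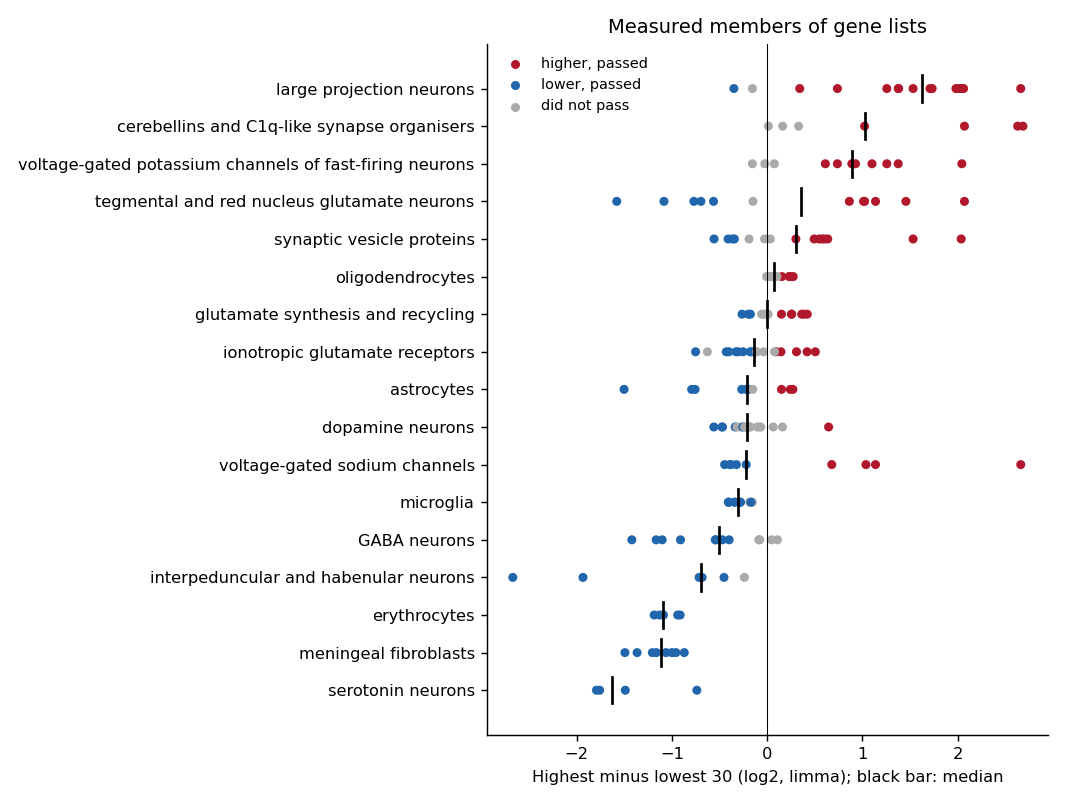
Differences between the 30 highest and 30 lowest libraries (x axis, log2) of the measured members of 17 lists (y axis), coloured by whether the limma test passed, with the median of each list as a black bar. Large projection neuron genes have the highest median (1.62) and serotonin genes the lowest (-1.63), and the glutamate nucleus and sodium channel lists hold members on both sides of 0.

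With the mean of the interpeduncular list added to the fit, calls were lost only among the lower named genes. All 15 higher genes kept their call, at 2.19 for Cartpt and 1.98 for Scn4b. Of the 15 lower genes 4 lost it, Pax7 (-0.84, limma adjusted p = 0.078), Chrna2, itself in the list (-0.23, adjusted p = 0.538), Pou4f2 (-0.03, adjusted p = 0.933) and Cyp11b1 (-0.31, adjusted p = 0.259). Tph2 and Slc6a4 moved the other way, to -1.95 and -1.96. Outside those 4, the lower genes kept their call, Chrnb4, also in the list, among them. Chrna2 and Chrnb4 enter the covariate, so their values with it are not independent of it.

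**Figure D5:**
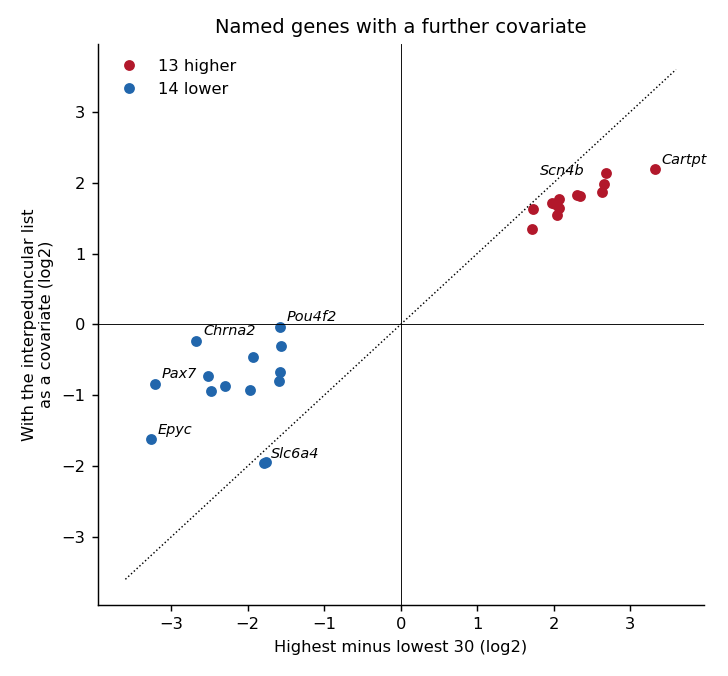
Difference between the 30 highest and 30 lowest libraries for the same 27 genes (x axis, log2) against the same difference with the mean of the interpeduncular and habenular list as a further covariate (y axis, log2), the dotted line marking equal values. The higher genes (red) stay between 1.34 and 2.19, and the lower genes (blue) come closer to 0 except the serotonin genes Slc6a4 and Tph2.

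The side effects did not differ detectably between the identifier formats. A limma test of the interaction of side and format passed for 0 of 15545 genes, and 203 genes had an unadjusted p below 0.05. Among the 315 list members measured, 201 were called between the sides, and 0 of these changed sign under median-of-ratios scaling, quantile normalization or totals without Zfp532 and ribosomal RNA genes. The calls lost were 13, 16 and 2.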

How the data were processed

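PolyA RNA was measured in 152 libraries of the posterior ventral tegmental area. Per the submitters' processing notes the authors used kallisto 0.48. Genome build and gene summing are not given in the sources used here. The table the authors deposited holds log2 values, and the values themselves show log2(estimated count + 1): undoing the transform gives totals of 15.2 to 57.2 M per library, and 56.4% of results under 100 are whole to within 0.001. This unit was inferred.

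The restored estimated counts were scaled to CPM. Genes with a mean log2(CPM + 1) of at least 1 over the 141 libraries with Th were tested with limma 3.58.1 in R 4.3.3 (pseudocount 1, variance trend, Benjamini-Hochberg adjustment over all genes), after a test on simulated data. The 1 library with another identifier form carries its own format level and adds nothing to the slopes. The labels do not describe replication beyond 1 title per library, so p-values measure the spread between these libraries. CPM carry no gene length, so levels are not compared between genes. Alternatives covered scaling, filters, covariates, sizes of the sides and left-out libraries.

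The named genes are the 15 largest positive and 15 most negative differences that passed with the same sign in both identifier formats and in the slopes, without Slc17a6 and provisional symbols, and any list member. Values of some of them are not reported here. The libraries, lists and tests were chosen with earlier results of these data known.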

Additional observations from a re-analysis of the deposited data

How the results depend on the processing

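Directions of the 30 named genes held in all 621 values computed under 21 alternative settings, 617 kept their call and 4 lost it, all with the interpeduncular covariate. The genes were chosen as the largest differences with 1 sign in both formats and the slopes, which largely fixed this, also within a format or without 1 library. Of 240 values of their slopes 176 kept their side of the threshold, 58 lost the call, 6 gained it and 0 changed sign. Of 732 list medians 22 moved by more than the SD of the list mean over the 30 highest libraries. A change of sign within that SD was not counted. With the interpeduncular covariate the medians changed sign for dopamine neurons (-0.21 to 0.24) and sodium channels (-0.22 to 0.25). They did so too for calcium channels (-0.19 to 0.19) and ionotropic glutamate receptors (-0.14 to 0.13). Thalamic (-0.31 to 0.05), GABA-A receptor (-0.16 to 0.04) and hypothalamic, mammillary and subthalamic genes (-0.05 to 0.04) also became positive. Oligodendrocyte (0.07 to -0.13), oligodendrocyte precursor (0.005 to -0.04) and oxidative phosphorylation genes (0.08 to -0.13) became negative. The interpeduncular list, which formed the covariate, went from -0.70 to 0.03. Counts of genes between the sides (2221 higher, 5087 lower) left the range of 1.5 times under quantile normalization (3122 lower), with decimal identifiers alone (3111 lower), with hexadecimal ones alone (1411 higher, 2875 lower), with the interpeduncular covariate (1250 and 1037) and with the meningeal covariate (2570 lower). Both covariates, the one on Xist and the set without Tph2-rich libraries were chosen after seeing the data. Counts of called slopes in both directions together (2785, of them 1903 downward) moved under median-of-ratios scaling (6392), without the format covariate (1787, 1073 downward), with decimal (37) or hexadecimal identifiers alone (827, 463 upward) and without relabelled or recovered libraries (1564, 935 downward). Quantile normalization gave 3509, with 1900 upward against 882. Single formats leave fewer libraries, and otherwise the cause was not tested. Leaving out each of the 60 libraries in turn gave 2152 to 2275 higher and 4788 to 5501 lower genes, and 0 of the 30 named calls was lost. With 15 libraries a side 1834 genes were higher and 4163 lower, and with 47 a side 2485 and 6256. No paired analysis was possible because the replicate numbers are only names given in accession order. At totals of at least 15.2 M counts, values under 1 CPM rest on few counts.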

Other observations

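Xist, the RNA of the inactive X chromosome, exceeded the Y-linked gene Ddx3y in 17 of the 30 highest, 10 of the 30 lowest and 47 of the 81 other libraries. Between the sides the difference of Xist was 1.60 ± 1.06 log2 units (limma adjusted p = 0.211), and in the other libraries its slope on Slc17a6 was -4.69 (adjusted p = 0.032), so the signs are opposite. With Xist as a covariate 2216 genes were higher and 4933 lower between the sides. The list counts that follow are read against the 14.3% of all genes that rose and the 32.7% that fell. Of 17 nuclear oxidative phosphorylation genes 3 rose and 0 fell (median 0.08), and of 8 measured immediate early genes 1 fell and 0 rose (median -0.08). Among 15 synaptic vesicle genes 8 were higher and 4 lower, and the lower count is near the share of all genes that fell. Cplx1 (0.64) and Cplx2 (-0.56), which encode the 2 main complexins, went in opposite directions, as did Vamp1 (1.53) and Vamp2 (-0.34) and Syt2 (2.04) and Syt1 (-0.41). The slopes of Syt1 (-0.40) and Syt2 (1.74) in the other libraries had the same signs. Grifin, a galectin-related gene, Mdfic2 and Vwa7 are named by the rule with differences of 2.34 ± 0.23, 2.31 ± 0.17 and 1.72 ± 0.16 log2 units and belong to no list. Of the voltage-gated calcium channel genes 2 rose and 6 fell of 11.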
